A study of Rattus norvegicus with 4 samples.

Results

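The Rab GTPases are the largest family of small GTPases of vesicle transport, and their genes were taken from the array as all those with a symbol made of Rab, a number and at most a letter and a further digit, which leaves out the proteins that only bind Rabs. The probe-gene table of the array gave 56 Rab genes of 14217 genes in all, measured by 97 of 31042 probe sets, and 29 of them had 1 probe set. Another 3 probe sets are paired with Rab1a and Rab1b at once and were not counted for either gene. Neonatal rat cardiomyocytes, heart muscle cells from the ventricles of newborn Sprague-Dawley rats aged 1 to 2 days, received adenovirus for 24 hours, either one encoding atrogin-1 together with GFP (Ad-atrogin-1, 2 arrays) or one encoding only GFP (Ad-GFP, 2 arrays). All cells were plated in serum and then kept in serum-free medium during the infection, and both groups carry GFP and adenovirus. Atrogin-1, the product of Fbxo32, is the substrate-binding subunit of a muscle ubiquitin ligase, and here it was supplied by the virus. By their labels the arrays within a group are biological replicates. The labels do not say how many animals or cultures stand behind an array, so the p-values measure the spread between these arrays only.

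Rab proteins switch between a GDP-bound form, which the dissociation inhibitor GDI keeps in the cytosol, and a GTP-bound form, which sits on a membrane and recruits effectors such as tethers and motors. Exchange factors load GTP, GTPase activating proteins end the active state, and a lipid added by Rab geranylgeranyl transferase anchors the protein in the membrane. Each Rab marks its own set of membranes, from the endoplasmic reticulum (ER) and Golgi through secretory vesicles to early, recycling and late endosomes, and many exist as close paralogs that share a number. In heart muscle cells they carry, among other cargo, receptors, ion channels and the insulin-responsive glucose transporter.

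Signals are log2 values after robust multi-array average (RMA), and the lower quartile of an array lay between 3.88 and 3.94. Of the 97 Rab probe sets, 81 were above the lower quartile on every array, 7 on some arrays and 9 on none. Fbxo32 had log2 signals of 13.55 and 13.47 in Ad-atrogin-1 and 5.24 and 5.04 in Ad-GFP cardiomyocytes, which fits the labels but does not tell viral from endogenous RNA. The groups were compared gene by gene with limma, with the brightest probe set of a gene standing for it, and p was adjusted by Benjamini-Hochberg over all 14217 genes. A gene was called where the groups differed at least 2-fold with an adjusted p below 0.05, and SE stands for the standard error of a log2 fold change. For a gene whose signals lie near the lower quartile the fold is not an exact size, since no background level was known. In these bulk samples, fewer cells of a type and less RNA per cell cannot be told apart.

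Rab27a and Rab6b stood apart from the other Rab genes, in opposite directions. Rab27a, which docks secretory granules, melanosomes and multivesicular bodies at the plasma membrane, had log2 signals of 6.55 and 5.89 in Ad-atrogin-1 and 3.70 and 4.24 in Ad-GFP cardiomyocytes. Both Ad-atrogin-1 arrays lay far above both Ad-GFP arrays, and the Ad-GFP signals lay around the lower quartile of the arrays. This was a 4.75-fold difference (log2 fold change 2.25, SE 0.28, 95% interval 1.56 to 2.94), whose adjusted p of 0.0514 (limma over 14217 genes) just missed the threshold. Rab6b, the Rab6 form of Golgi transport that is enriched in neurons, had 5.07 and 4.88 in Ad-atrogin-1 and 6.19 and 6.43 in Ad-GFP cardiomyocytes. It fell by 1.33 on the log2 scale (SE 0.15, 2.51-fold lower, adjusted p = 0.0396, limma) and was the 1 Rab gene of 56 that was called. Over all genes 0.492% were called, 0.436% higher and 0.0563% lower.

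The 3 probe sets of Rab27a moved together. Probe set 1387763_at had log2 signals of 5.50 and 5.06 in Ad-atrogin-1 and 3.33 and 3.29 in Ad-GFP cardiomyocytes, and it rose by 1.97 (SE 0.17, adjusted p = 0.0282, limma over 31042 probe sets). It is the dimmest of the 3 and the one with the smallest spread in Ad-GFP. Probe set 1384852_at had 6.08 and 5.76 in Ad-atrogin-1 and 3.09 and 4.10 in Ad-GFP cardiomyocytes, a difference of 2.33 (SE 0.33, adjusted p = 0.0830). The brightest, 1377669_at, had an adjusted p of 0.0627 over all probe sets, so 1 of the 3 Rab27a probe sets passed. For Rab6b, 1388632_at passed at this level (adjusted p = 0.0485, limma). The other Rab6b probe set, 1392478_at, had 4.72 and 4.81 in Ad-atrogin-1 and 5.80 and 5.44 in Ad-GFP cardiomyocytes and did not pass (log2 fold change -0.85, SE 0.16, adjusted p = 0.135). In all, 1 Rab probe set of 97 was called higher and 1 lower, where 0.274% of all probe sets were called, 0.248% higher and 0.0258% lower. An unadjusted p under 0.05 was found for 17 of the 97 (11.2% of all probe sets), and the groups did not overlap at 42 (40.4% of all). The call of Rab27a turned on the setting: its adjusted p was 0.0286 with its probe sets averaged, 0.0394 with arrays centred on their medians and 0.0486 with limma's prior variance taken over all probe sets. With an equal-variance t-test in place of limma it was 0.498. With any 1 array left out, the log2 fold change was 1.92 to 2.58 for Rab27a and -1.45 to -1.21 for Rab6b. Such a fit leaves 1 array in a group, so no call is read from it.

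**Figure D1:**
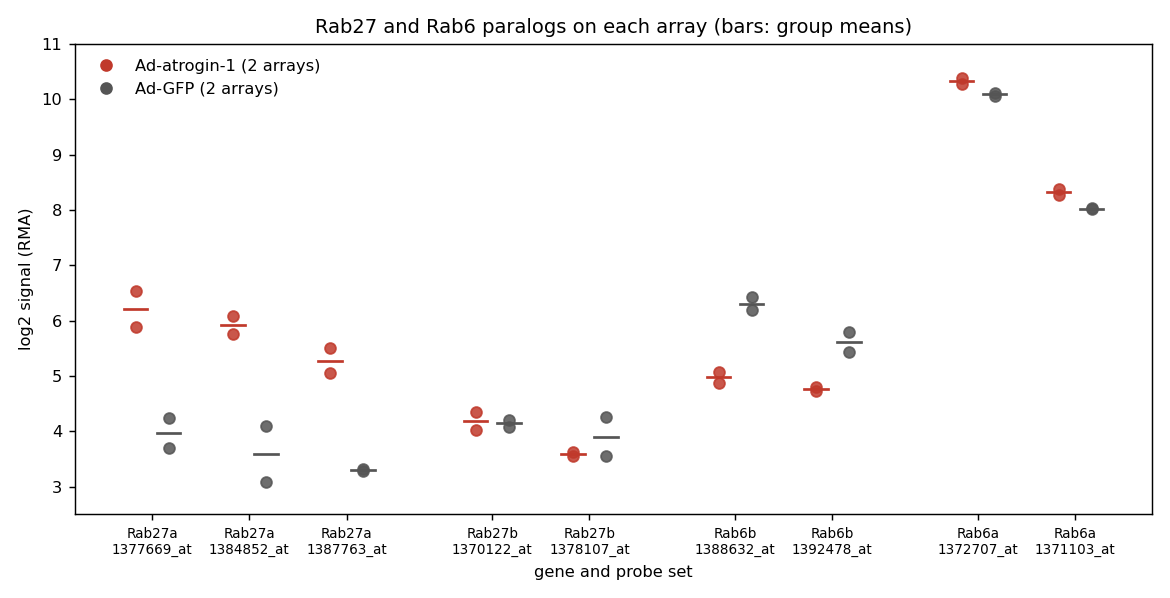
Log2 RMA signal (vertical axis) of each probe set of Rab27a, Rab27b, Rab6b and Rab6a (horizontal axis) on the 2 Ad-atrogin-1 arrays (red, left) and the 2 Ad-GFP arrays (grey, right), with bars for group means. All 3 Rab27a probe sets are higher and both Rab6b probe sets lower on both Ad-atrogin-1 arrays, while the Rab27b arrays overlap and Rab6a is higher by 0.24 and 0.30. Heights can be compared between arrays of a probe set but not between probe sets.

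The promoter windows of these genes are shown so that the transcripts behind the largest changes can be placed in the genome. They run from 250 bases before to 50 bases after the annotated start in the RefSeq annotation of the rat build GRCr8, at chr8:82663123-82663422 for Rab27a and chr8:112573973-112574272 for Rab6b, both on the plus strand. Letters are 5′ to 3′, and capitals mark the 50 bases from the start onward.
Rab27a: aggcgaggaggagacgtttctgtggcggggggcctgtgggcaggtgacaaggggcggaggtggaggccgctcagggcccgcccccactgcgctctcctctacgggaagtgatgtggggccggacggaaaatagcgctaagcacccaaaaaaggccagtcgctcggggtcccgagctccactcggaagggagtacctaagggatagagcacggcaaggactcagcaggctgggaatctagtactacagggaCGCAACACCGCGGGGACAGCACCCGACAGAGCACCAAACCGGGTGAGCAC
Rab6b: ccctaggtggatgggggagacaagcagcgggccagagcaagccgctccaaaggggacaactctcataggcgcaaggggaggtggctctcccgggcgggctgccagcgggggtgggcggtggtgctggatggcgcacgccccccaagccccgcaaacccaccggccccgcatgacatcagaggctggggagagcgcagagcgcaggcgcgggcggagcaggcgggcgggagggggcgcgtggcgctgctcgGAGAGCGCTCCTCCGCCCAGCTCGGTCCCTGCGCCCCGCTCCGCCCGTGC
Both windows are rich in G and C (64.3% for Rab27a and 74.7% for Rab6b). They were searched on both strands for the unfolded protein response element UPRE (TGACGTGG) and for the TCF/LEF element CTTTGAT, and neither window held these letters, which are in 0.595% and 3.63% of all 33469 windows of this length. The shorter CCACG, which ends the ER stress response element and is contained in the complement of the UPRE, was in the Rab6b window and not in that of Rab27a, and 31.6% of all windows hold it. Windows were found for 45 of the 56 Rab genes, 46 in all, of which 24 held CCACG and 1 the UPRE letters, that of the endosomal Rab21. A match is a description of letters and not a site of binding, and no match says only that these letters are not in this window.

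The closest paralogs, Rab27b and Rab6a, had far smaller differences between the groups. Rab27b, which acts beside Rab27a in granule docking and exosome release, had log2 signals of 4.03 and 4.35 in Ad-atrogin-1 and 4.09 and 4.20 in Ad-GFP cardiomyocytes. The arrays overlapped, with a log2 fold change of 0.05 (SE 0.15, 95% interval -0.33 to 0.43). Its other probe set had 3.63 and 3.55 in Ad-atrogin-1 and 4.27 and 3.55 in Ad-GFP cardiomyocytes, with signals around the lower quartile. The log2 signal of Rab27a minus that of Rab27b was 2.52 and 1.53 on the Ad-atrogin-1 arrays and -0.39 and 0.03 on the Ad-GFP arrays, so the 2 changes differed by 2.20 (SE 0.53). The groups did not overlap, which with 2 arrays against 2 gives an exact two-sided permutation p of 0.333, the smallest this design allows. The size of such a difference on an array depends on the probes, and only its change between groups is read here.

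Rab6a, the form of Rab6 that nearly every cell uses at the Golgi, had log2 signals of 10.28 and 10.39 in Ad-atrogin-1 and 10.07 and 10.12 in Ad-GFP cardiomyocytes. It was slightly higher on both Ad-atrogin-1 arrays (log2 fold change 0.24, SE 0.12, adjusted p = 0.476, limma), and its other probe set had a log2 fold change of 0.30. Rab6b minus Rab6a was -5.21 and -5.50 on the Ad-atrogin-1 arrays and -3.88 and -3.69 on the Ad-GFP arrays. The changes of the paralogs thus differed by -1.57 (SE 0.17), with no overlap between groups and again an exact permutation p of 0.333. In the current annotation Rab6b is also an old synonym of Rab6a, so both genes were checked by their gene identifiers, which differ.

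Numbers shared by several Rab genes gave 13 such families, and the Rab27 and Rab6 families had the widest ranges of log2 fold change within them, 2.20 and 1.57. The Rab3 genes of regulated secretion followed, with a range of 0.48 over 4 genes, and the Rab5 genes of early endosomes, with 0.44 over 3 genes. In the other 9 families the members lay within 0.27 of each other. Rab2a and Rab2b, which act between the ER and the Golgi, were the closest, at 0.31 and 0.28.

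**Figure D2:**
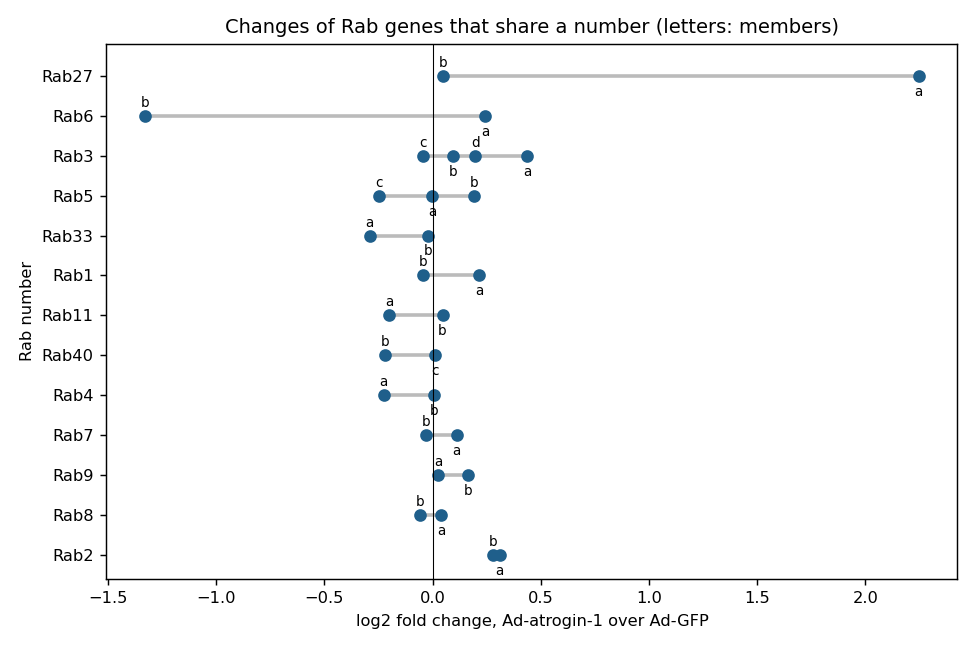
Difference of mean log2 signal, Ad-atrogin-1 minus Ad-GFP (log2 fold change, horizontal axis), of each Rab gene in the 13 families of Rab genes that share a number (vertical axis), with letters for the members and grey lines for the range. The Rab27 and Rab6 lines are 2.20 and 1.57 long and the Rab2 line 0.03.

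As a family, the Rab genes had a median log2 fold change of -0.002, beside -0.003 for all genes, with 27 Rab genes above 0 and 29 below. The median size of the change, without its sign, was 0.14 for the Rab genes and 0.14 for all genes. A difference of 1.5-fold or more was found at 4 of the 56, 7.14%, against 5.55% of all genes. An unadjusted p under 0.05 was found for 9 of the 56, 16.1%, against 12.9% of all genes. The 2 groups did not overlap at 24 of the 56, 42.9%, against 43% of all genes. Without Rab27a and Rab6b the log2 fold changes ran from -0.81 to 0.49, and the 95% interval stayed inside a 2-fold change for 52 of these 54 genes. The other 2, whose intervals reach beyond 2-fold, were Rab15 and Rab30. Over all 56 Rab genes, 92.9% had an interval inside a 2-fold change, beside 92.5% of all genes.

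Among 13 Rab genes of the ER and Golgi, Rab6b fell and no other passed the test. Rab30, a Golgi Rab, had log2 signals of 7.81 and 7.49 in Ad-atrogin-1 and 8.36 and 8.47 in Ad-GFP cardiomyocytes, the lowest value after Rab6b here (log2 fold change -0.76, SE 0.15, adjusted p = 0.125, limma). Rab33a, a Golgi Rab with a role in autophagy, had 5.27 and 5.13 in Ad-atrogin-1 and 5.49 and 5.49 in Ad-GFP cardiomyocytes. Neither gene overlapped between the groups at this probe set, although the second probe set of Rab30 overlapped between groups. Other genes of this group were higher at their brightest probe set. Rab1a, which tethers vesicles from the ER to the Golgi, had 11.60 and 11.75 in Ad-atrogin-1 and 11.40 and 11.52 in Ad-GFP cardiomyocytes, a log2 fold change of 0.21 (SE 0.13). Rab2a, needed for transport between these compartments, had 10.77 and 10.86 in Ad-atrogin-1 and 10.53 and 10.47 in Ad-GFP cardiomyocytes, and Rab2b had 7.70 and 7.55 in Ad-atrogin-1 and 7.33 and 7.36 in Ad-GFP cardiomyocytes. These 3 genes and Rab6a were higher on both Ad-atrogin-1 arrays, by 0.21 to 0.31, with adjusted p of 0.361 to 0.556 (limma), while the second probe set of Rab2b overlapped at -0.02. Groups did not overlap at 53.8% of the 13 genes, beside 43% of all genes. Both Ad-atrogin-1 arrays were higher in 4 and lower in 3 of the 13, as in 20.7% and 22.3% of all genes. Rab1b overlapped at 8.47 and 8.43 in Ad-atrogin-1 and 8.52 and 8.46 in Ad-GFP cardiomyocytes.

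Of 12 Rab genes of secretory vesicles and of transport to the plasma membrane, none passed, and apart from Rab27a they ran from -0.25 to 0.44. Rab3a, the main Rab of synaptic and hormone vesicles, had 7.08 and 6.70 in Ad-atrogin-1 and 6.57 and 6.34 in Ad-GFP cardiomyocytes, a log2 fold change of 0.44 (SE 0.17, adjusted p = 0.384, limma). Its second probe set had 5.75 and 5.58 in Ad-atrogin-1 and 5.05 and 4.95 in Ad-GFP cardiomyocytes, a difference of 0.67 (SE 0.13, adjusted p = 0.141 over all probe sets), so both lay higher on both Ad-atrogin-1 arrays. Rab3d, another Rab of secretory granules, had a log2 fold change of 0.20 without overlap. Rab8a, Rab8b and Rab10, which carry vesicles from the Golgi to the cell surface, had 0.04, -0.06 and 0.04. Rab13, a Rab of junction assembly, was the lowest, at -0.25, with both Ad-atrogin-1 arrays below both Ad-GFP arrays. Rab3c and Rab37 lay under the lower quartile on all arrays, so their values of -0.04 and 0.06 say little.

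None of the 12 Rab genes of early endosomes passed, with a median log2 fold change of -0.22 beside -0.003 for all genes and 4 of the 12 above 0. At the brightest probe sets, both Ad-atrogin-1 arrays were below both Ad-GFP arrays in 6 of the 12, as in 22.3% of all genes. In 1 they were above, as in 20.7% of all genes. Among the genes with lower arrays, the groups overlapped at every other probe set of Rab15 (-0.42 and -0.26), Rab17, Rab20 and Rab31. The other probe sets of Rab22a had -0.35 without overlap and -0.09 with overlap. Rab15, which acts on early and recycling endosomes, had 6.18 and 6.31 in Ad-atrogin-1 and 7.45 and 6.65 in Ad-GFP cardiomyocytes (log2 fold change -0.81, SE 0.27, adjusted p = 0.298, limma). The Ad-GFP arrays differed from each other by nearly as much as the groups did, and without Ad-GFP replicate 1 the log2 fold change of Rab15 was -0.41. Rab22a, an endosomal relative of Rab5, had 8.06 and 8.15 in Ad-atrogin-1 and 8.40 and 8.44 in Ad-GFP cardiomyocytes. Rab31, a close relative of Rab22a, had 8.43 and 8.82 in Ad-atrogin-1 and 8.99 and 8.95 in Ad-GFP cardiomyocytes. Their log2 fold changes were -0.32 (SE 0.12) and -0.35 (0.16). The Rab5 genes, which drive the fusion of early endosomes, did not move as a group. Their brightest probe sets had 0.00 for Rab5a, 0.19 for Rab5b and -0.25 for Rab5c. Other Rab5b probe sets had 0.55, 0.31 and 0.29 without overlap and -0.03 with overlap. The other probe set of Rab5a had 0.21 without overlap, as groups do not overlap at 40.4% of all probe sets. Rab14, which acts between the Golgi and endosomes, had 10.39 and 10.45 in Ad-atrogin-1 and 10.39 and 10.22 in Ad-GFP cardiomyocytes.

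None of the 13 Rab genes of recycling endosomes, late endosomes and lysosomes passed. At their brightest probe sets, 12 of them had log2 fold changes between -0.20 and 0.16. Rab11a, the Rab of slow recycling, had 9.71 and 9.76 in Ad-atrogin-1 and 9.83 and 10.04 in Ad-GFP cardiomyocytes (log2 fold change -0.20, SE 0.13), and Rab11b overlapped at 0.05. Their other probe sets had -0.40 and 0.22, each without overlap (adjusted p = 0.388 and 0.553, limma over all probe sets). Rab24, which is linked to autophagy, had 8.02 and 8.08 in Ad-atrogin-1 and 7.59 and 7.53 in Ad-GFP cardiomyocytes. The groups lay well apart, at a log2 fold change of 0.49 (SE 0.12, adjusted p = 0.188, limma), the largest positive value after Rab27a. Rab7a, the Rab of late endosomes, had 0.11, and Rab9a, of transport from late endosomes back to the Golgi, 0.03. At the brightest probe sets the arrays overlapped at the other 8 late endosomal and lysosomal Rab genes, while 43% of all genes did not overlap. The other probe set of Rab7a and that of Rab12 were higher on both Ad-atrogin-1 arrays, by 0.22 and 0.15.

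The last 3 groups are small. Rab32, which serves melanosomes, other lysosome-related organelles and mitochondria, had 8.46 and 8.26 in Ad-atrogin-1 and 8.79 and 8.96 in Ad-GFP cardiomyocytes (log2 fold change -0.51, SE 0.14, adjusted p = 0.233, limma). Its paralog Rab38 was on the other side, with 6.04 and 6.05 in Ad-atrogin-1 and 5.57 and 5.99 in Ad-GFP cardiomyocytes. Rab23, which restrains hedgehog signalling, had 6.14 and 6.52 in Ad-atrogin-1 and 6.38 and 6.16 in Ad-GFP cardiomyocytes, and Rab28, a Rab of cilia, overlapped as well. Of the SOCS-box Rabs, which link to ubiquitin ligases of the cullin type, Rab40c had 0.01. Rab40b lay under the lower quartile on all arrays.

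**Figure D3:**
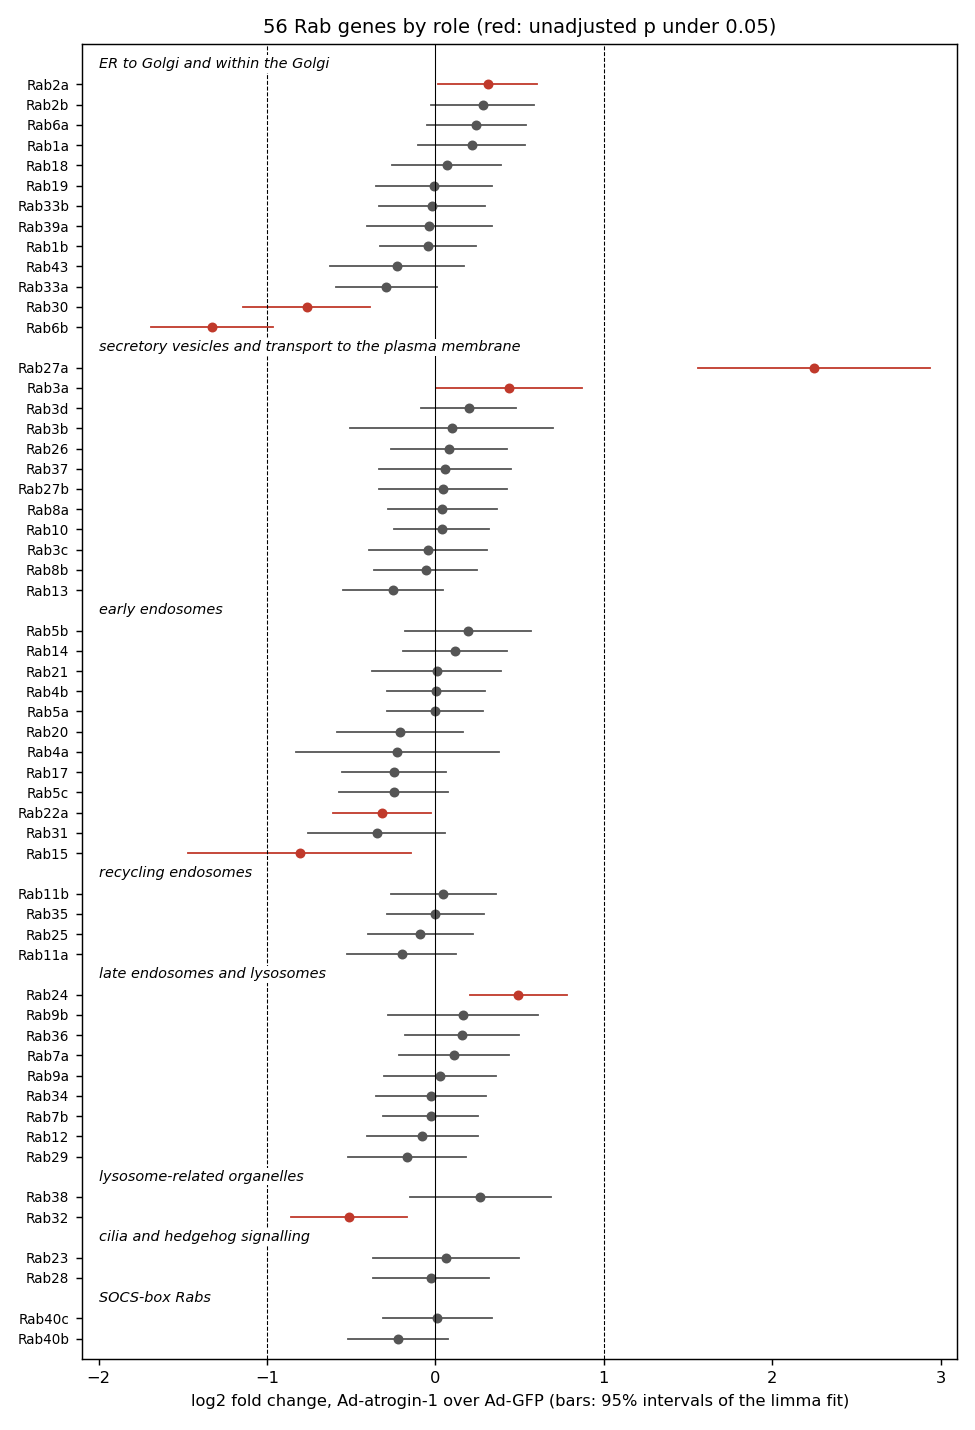
Difference of mean log2 signal, Ad-atrogin-1 minus Ad-GFP (log2 fold change, horizontal axis), of the 56 Rab genes with 95% intervals of the limma fit, grouped by role and ordered within a role, with dashed lines at 2-fold. Red marks the 9 genes with an unadjusted p under 0.05; Rab27a at 2.25 and Rab6b at -1.33 lie outside the band of the other 54.

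None of the measured genes of the Rab cycle was called, neither higher nor lower, and 8 of these 106 genes (7.55%) had an unadjusted p under 0.05, against 12.9% of all genes. The nearest to the threshold were on opposite sides. Uso1, the Golgi tether p115 that Rab1 recruits, had 9.56 and 9.86 in Ad-atrogin-1 and 8.39 and 8.73 in Ad-GFP cardiomyocytes, 2.22-fold higher (log2 fold change 1.15, SE 0.18, adjusted p = 0.0760, limma). Rin3, an exchange factor for the Rab5 subfamily, had 6.97 and 6.99 in Ad-atrogin-1 and 7.97 and 7.80 in Ad-GFP cardiomyocytes (log2 fold change -0.91, SE 0.12, adjusted p = 0.0614). Its relative Rin2 had -0.45 (SE 0.16), also without overlap. The 27 exchange factors had a median of -0.02 and the 33 GTPase activating proteins one of -0.03. Among the activating proteins, Tbc1d9 had -0.78 (SE 0.14, adjusted p = 0.107, limma) and Tbc1d16 had 0.43 (SE 0.15, adjusted p = 0.314). Of 25 other effectors, with a median of 0.01, Rab11fip1, a partner of Rab11 in recycling, had -0.35 (SE 0.13, adjusted p = 0.361) and came after Uso1.

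The partners of Rab27a and Rab6b were described as lists of their own. Of 9 Rab27 effectors, Sytl2, a synaptotagmin-like protein that ties granules to the plasma membrane, had 7.33 and 6.84 in Ad-atrogin-1 and 7.84 and 7.92 in Ad-GFP cardiomyocytes. Its log2 fold change was -0.79 (SE 0.19, adjusted p = 0.188, limma), on the other side of 0 from Rab27a, and Rph3al had -0.28 (0.14). The median of the 9 was -0.004. Of 9 Rab6 effectors, the dynein adaptors Bicd2 and Bicdl1 had -0.23 (SE 0.13) and -0.29 (0.17), while Dennd5a and the golgin gene Gcc2 had 0.25 (0.14) and 0.25 (0.15), each without overlap. The median of these 9 Rab6 effectors was 0.09. At 55.6% of them the groups did not overlap, beside 43% of all genes, and none had an unadjusted p under 0.05 (limma). Of the general factors, Rabggta, the alpha subunit of Rab geranylgeranyl transferase, had 0.21 (SE 0.12) and Gdi2 0.18 (0.15).

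The Arf, Arl and Sar1 genes, small GTPases that build vesicle coats and recruit tethers, are given for comparison. None of these 17 genes was called, and their median was 0.14. Arl1, a GTPase of the Golgi that brings golgins to its membranes, had 10.01 and 10.14 in Ad-atrogin-1 and 9.26 and 9.25 in Ad-GFP cardiomyocytes (log2 fold change 0.82, SE 0.12, adjusted p = 0.0661, limma). Sar1a, which starts the COPII coat, had 0.37 (SE 0.13).

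**Figure D4:**
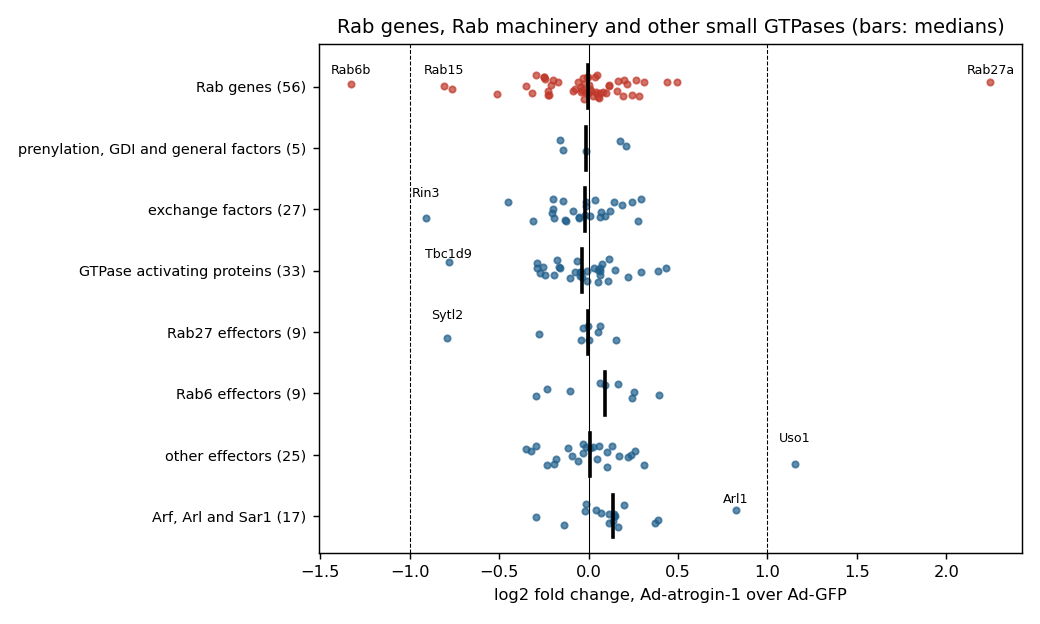
Difference of mean log2 signal, Ad-atrogin-1 minus Ad-GFP (log2 fold change, horizontal axis), of the Rab genes (red), of the genes of the Rab cycle in 6 lists and of the Arf, Arl and Sar1 genes (blue), with the number of measured genes in brackets, bars for medians and dashed lines at 2-fold. Points are spread vertically for legibility; medians lie between -0.03 and 0.14, and Rab27a, Rab6b and Uso1 are past 2-fold.

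Several Rab genes are enriched in other cells, so markers of those cells were set beside the Rab values. No gene of any marker list was called, where only 0.492% of all genes were. The summed signal of 7 leukocyte markers, cells rich in Rab27a, was 7.83 to 8.93 on the log2 scale in Ad-atrogin-1 and 8.32 to 8.43 in Ad-GFP cardiomyocytes, and that of 5 melanocyte markers 7.65 to 8.02 and 7.72 to 7.86. The sum of 8 neuronal markers, of cells rich in Rab6b and Rab3a, was 8.71 to 9.10 in Ad-atrogin-1 and 8.46 to 8.56 in Ad-GFP cardiomyocytes. This neuronal sum lay higher on both Ad-atrogin-1 arrays, as Rab3a did, while Rab6b lay lower on both. Any gene without overlap between the groups, as 43% of all genes, matches or mirrors Rab3a in the same way. No link to the Rab values is therefore read from this match. Uchl1, the largest part of this sum, had a log2 fold change of 0.61 (SE 0.22), and Elavl4 had 0.83 (SE 0.12, adjusted p = 0.0617, limma). Tubb3, Stmn2 and Chga had 0.41, 0.25 and 0.14, so 5 of the 8 lay above 0, with a median log2 fold change of 0.19. Snap25, Syt1 and Syp lay on the other side, at -0.11, -0.12 and -0.17. Of the 8 neuronal markers, Snap25, Syt1 and Stmn2 lay under the lower quartile on all arrays, while Syp, Elavl4, Tubb3, Chga and Uchl1 did not. The sum of 7 epithelial markers was 8.66 to 8.83 in Ad-atrogin-1 and 7.97 to 8.19 in Ad-GFP cardiomyocytes, with Epcam and Cdh1 under the lower quartile. Krt19, an epithelial and mesothelial keratin, had 7.89 and 8.09 in Ad-atrogin-1 and 3.20 and 5.48 in Ad-GFP cardiomyocytes (adjusted p = 0.114, limma). Of the 7 epithelial markers 5 were below 0, with a median log2 fold change of -0.07, and Krt18 had -0.83 (SE 0.30) and Krt8 -0.24 (SE 0.18). The sums of fibroblast, endothelial, glial and cardiomyocyte markers overlapped between the groups, and the 7 measured cardiomyocyte markers were all above the lower quartile. Of these 7, 5 had log2 fold changes above 0, with a median of 0.38, while Nppa and Tnnt2 had -0.22 and -0.11. Myh6 had 0.82 (SE 0.44) and Atp2a2 0.715 (SE 0.27, adjusted p = 0.362, limma). The part of these cells in the Rab values was not tested.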

How the data were processed

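RNA of 2 Ad-atrogin-1 and 2 Ad-GFP samples was hybridized to Affymetrix GeneChip Rat Genome arrays, 1 array per sample. The authors computed log2 values with RMA in GeneSpring GX, 1 per probe set and array, and these deposited values were used unchanged. Depth does not apply to arrays, and the number of arrays limits the precision. Control probe sets (57) were left out. Of the other 31042, 20826 are paired with 1 gene, 436 with several and 9780 with none in a table of GEO's platform annotation, and the 56 Rab symbols are the same in the current RefSeq annotation.

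Tests were two-sided and used the lmFit and eBayes functions of limma 3.58.1 (R 4.3.3) without a block, fitted over all probe sets and, separately, over 1 probe set a gene (that with the highest mean signal, 14217 genes), each with Benjamini-Hochberg adjustment. The methods do not name the test beyond a comparison of 2 group means, and thresholds follow them. The fit has 2 residual degrees of freedom and a prior of 3.62 for genes. The fit was tested on simulated data. Paralogs were compared by the exact permutation test of their difference per array. Lists were described by counts and medians.

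The genes named are Rab27a, Rab27b, Rab6b and Rab6a, every Rab gene or probe set that passes, the 10 other Rab genes with the largest change, the 4 brightest, the largest change of each role group, and in the lists called genes or the 2 with the smallest p. Others that are named illustrate a role and were chosen after their values were seen. The members and lists were chosen with earlier results of these data known. A Rab with several roles is in 1 group, and Dennd5a and Rabgap1 are in 2 lists. Alternatives were other scalings, filters, priors, tests, thresholds, probe set choices, the replicate number as a block and each array left out. Figures were drawn with matplotlib 3.10.9. The proteins of these genes were not analysed here, and a further gene family set down for comparison is not reported here.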

Additional observations from a re-analysis of the deposited data

How the results depend on the processing

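Under 15 other settings, with arrays left out given apart, the directions of Rab27a and Rab6b did not change. Settings that alter only the threshold, test, prior, filter or block leave both log2 fold changes as they are. No direction could turn under those. Rab27a was called, as the 1 Rab gene called higher, under 11 of the 15 settings. Its log2 fold change was then 2.25 at 2-fold with no test, at 2-fold with unadjusted p of limma or of an equal-variance t-test (taken for the methods' comparison of 2 means), with arrays centred on their medians, among the upper 60% of probe sets, with an intensity trend, with a robust prior and with the prior over all probe sets, the last a setting chosen after seeing the data. It was 2.26 after a further quantile normalization, 2.18 with probe sets averaged and 2.33 with the most variable probe set. Rab6b, at -1.33, and with it the count of Rab genes called lower, at 0, lost the call with that t-test after adjustment (adjusted p = 0.462) and with the replicate block. With the replicate number as a block the adjusted p was 0.172 for Rab6b and 0.181 for Rab27a, and no Rab probe set was called either way, as with the adjusted t-test. All genes called were then 1 higher and 0 lower, with 62 and 8 without the block. Same-numbered arrays share only a number, and their deviations correlated at 0.043 over all probe sets. The count of Rab probe sets called higher was 3 at 2-fold with no test and with unadjusted p of either test, and 2 with centred arrays or a further quantile normalization. Uso1 was the 1 gene of the Rab cycle called, higher, at 2-fold with no test or with unadjusted p of either test. The further quantile normalization called 71 genes higher and 18 lower.

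With probe sets averaged, the changes of Rab6b and Rab6a differed by -1.36. The Rab27 difference could not be computed among the upper 60% of probe sets, where Rab27b is missing. With each array left out in turn, the log2 fold change was 1.92 to 2.58 for Rab27a and -1.45 to -1.21 for Rab6b. The Rab27 difference was 1.71 to 2.69, the Rab6 difference -1.72 to -1.43 and the Rab median -0.04 to 0.01. Calls are not read from these fits, since the lone array is assumed to vary like the other group. Of the 19 Rab genes named by rule, of which Rab27b and Rab40b have no value among the upper 60% of probe sets, the direction turned without an array for Rab23 and Rab27b alone. These are the only named genes whose groups overlap. Where groups do not overlap, leaving out 1 array cannot turn the direction, so this only restates the overlap. With probe sets averaged or the most variable one taken, the direction turned for Rab27b (-0.14 and -0.32) and for Rab40b (0.14 and 0.50).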

Other observations

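Of the 27 Rab genes with several probe sets, 11 had log2 fold changes on both sides of 0, none of them with an unadjusted p under 0.05 on both sides. The 3 probe sets paired with Rab1a and Rab1b at once include 2 with both Ad-atrogin-1 arrays below both Ad-GFP arrays. One of them, 1385270_s_at, had log2 signals of 7.07 and 6.86 in Ad-atrogin-1 and 7.60 and 7.13 in Ad-GFP cardiomyocytes (a difference of -0.40 with an SE of 0.19; the adjusted p over the 31042 probe sets was 0.517 by limma). The probe set of Rab1a alone was higher on both, by 0.21. The 2 Rab40b probe sets also lay on opposite sides, at -0.22 and 0.50, with all their signals under the lower quartile. Probe sets of a gene also differed in size. Of the 5 Rab5b probe sets, 1392643_at had 6.65 and 6.61 in Ad-atrogin-1 and 6.22 and 5.93 in Ad-GFP cardiomyocytes, a difference of 0.55 (SE 0.14, adjusted p = 0.256), against 0.19 at the brightest. The groups of 2 arrays are too small for a test of outlying arrays.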
